A study of Homo sapiens with 4 samples.

Results

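The 10 genes described here encode membrane transporters of the solute carrier (SLC) superfamily, and they were taken by name from the authors' deposited table of 858 genes. SLC25A1, SLC25A15, SLC25A24 and SLC25A26 belong to the family of mitochondrial carriers, SLC45A4, SLC16A9, SLC44A1, SLC6A8 and SLC4A3 are counted here as plasma membrane carriers, and SLC30A6 is a zinc carrier of the Golgi. The table compares total RNA of MiaPaca-2, an established human pancreatic cancer line, between 2 samples carrying shPRMT1, a short hairpin that targets PRMT1, and 2 samples carrying shNTC, a hairpin with no target. All 4 samples are of the same line, and the labels give neither a hairpin sequence, a time after transduction nor a clone. The question was which transcripts differ in abundance once PRMT1, the main writer of asymmetric dimethylarginine, is depleted. Nothing in the labels says that the samples of a group came from separate cultures, so p-values may measure technical spread alone.

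Solute carriers move metabolites and ions across membranes that these molecules cannot cross unaided. The SLC25 carriers exchange substrates across the inner mitochondrial membrane, linking the matrix with the cytosol, whereas the carriers of the cell surface set uptake and export of nutrients, buffers and organic cations. Pancreatic cancer cells are known for heavy use of scavenged and exchanged metabolites.

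The values given for each gene are the ratio of abundance in shPRMT1 over that in shNTC, its log2 value, an unadjusted p and a p adjusted over all genes the authors tested. The header does not name the numerator, and the authors' deposited table has PRMT1 at 0.356 (log2 fold change −1.49, unadjusted p = 0.0156 and adjusted p = 0.411), which set the reading as shPRMT1 over shNTC. PRMT1 itself thus did not pass an adjusted p of 0.05, and under the opposite reading every direction below would turn round. Levels in single samples, sequencing depth and replicate error were not analysed here, so the overlap of both groups cannot be shown, and the marker genes of the cell line could not be checked. In bulk RNA, fewer cells that express a gene and less RNA per cell cannot be told apart.

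The 10 carriers were chosen with these ratios known, so their values are a description and carry no test. By the authors' deposited table, 0 of the 10 carriers passed an adjusted p of 0.05, as against 0.0131% of the 7640 genes tested. All 10 had an unadjusted p under 0.05, the criterion for a place in the authors' deposited table, which 11.2% of tested genes met. The adjusted p of the carriers lay between 0.351 and 0.432 in the authors' deposited table. By sign, 6 carriers were listed lower and 4 higher in shPRMT1, beside 58.4% lower and 41.6% higher over all 858 genes of the authors' deposited table. Their median log2 fold change was −0.19, against −0.12 over all listed genes, and their median absolute value was 0.32, against 0.28, in the authors' deposited table. Without SLC45A4, which stands apart from the rest, the range of the other 9 was −0.68 to 0.3 in the authors' deposited table.

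**Figure D1:**
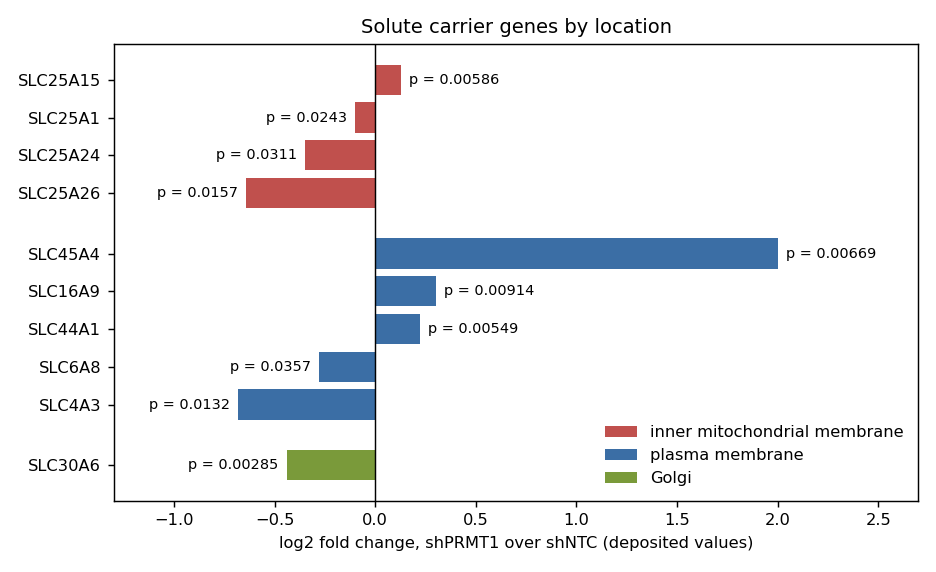
Bars give the deposited log2 fold change, shPRMT1 over shNTC, of the 10 carriers, coloured by location, with the unadjusted p of the authors' deposited table beside each bar. SLC45A4 reaches 2.0 and the other bars lie between −0.68 and 0.3; no error bars are drawn because values of single samples were not analysed.

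Of the mitochondrial carriers, 3 were listed lower and 1 higher, beside 58.4% lower over all listed genes of the authors' deposited table, and centred on the median of these genes the split was 2 and 2. The lowest was SLC25A26 (ENSG00000144741.13), the carrier that brings S-adenosylmethionine into the matrix in exchange for S-adenosylhomocysteine. The authors' deposited table gave it a ratio of 0.642, a level 35.8% lower in shPRMT1 (log2 fold change −0.64, unadjusted p = 0.0157 and adjusted p = 0.411). S-adenosylmethionine is the methyl donor of arginine methyltransferases, PRMT1 among them, and inside mitochondria it serves the methylation of RNA and proteins and the synthesis of coenzyme Q and lipoate. SLC25A24 (ENSG00000085491.11), a calcium-regulated carrier that exchanges ATP-Mg for phosphate and so adjusts the adenine nucleotide pool of the matrix, was given 0.786 as its ratio by the authors' deposited table (log2 value −0.35, unadjusted p = 0.0311 and adjusted p = 0.432).

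The citrate carrier SLC25A1 (ENSG00000100075.5) exports citrate to the cytosol, where it feeds fatty acid and sterol synthesis. Its difference was the smallest of the 10 in the authors' deposited table, with 0.931 as its ratio (log2 fold change −0.1, unadjusted p = 0.0243 and adjusted p = 0.432). Its log2 fold change lies nearer 0 than the median of −0.12 over all listed genes of the authors' deposited table, and centring on this median turns its sign. SLC25A15 (ENSG00000102743.10) exchanges cytosolic ornithine for matrix citrulline in the urea cycle, and its loss causes a hyperammonaemia syndrome in people. It was the mitochondrial carrier on the higher side, with 1.09 as its ratio in the authors' deposited table (log2 value 0.13, unadjusted p = 0.00586 and adjusted p = 0.364). SLC25A1 and SLC25A15 stood at ranks 782 and 735 of 858 by absolute log2 fold change in the authors' deposited table, so both lay among its smaller differences.

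The plasma membrane carriers, like the mitochondrial ones, ran in both directions, and their wider range came mainly from SLC45A4. Without it they lay between −0.68 and 0.3, beside −0.64 to 0.13 for the mitochondrial carriers, in the authors' deposited table. SLC45A4 (ENSG00000022567.5), of a family related to sugar and proton cotransporters and described also as a polyamine transporter, had the highest ratio of the 10. Its level was 4.0-fold that of shNTC in the authors' deposited table (log2 value 2.0, unadjusted p = 0.00669 and adjusted p = 0.379). It was the second highest of all entries and ranked 4 of 858 by absolute log2 fold change, and by p it ranked 132, in the authors' deposited table. It was also the 1 carrier of the 10 whose log2 fold change reached 1 in either direction, beside 6.76% of listed genes in the authors' deposited table. At a limit of 0.5 there were 3, SLC45A4, SLC4A3 and SLC25A26, beside 23.8% of listed genes in the authors' deposited table.

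The other higher carriers differed by far less. SLC16A9 (ENSG00000165449.7), a monocarboxylate transporter family member described as a carrier of carnitine and creatine, was given a ratio of 1.23 by the authors' deposited table (log2 value 0.3, unadjusted p = 0.00914 and adjusted p = 0.394). SLC44A1 (ENSG00000070214.11), a choline transporter that supplies phosphatidylcholine synthesis and occurs in mitochondria as well as at the cell surface, had a ratio of 1.16 (log2 fold change 0.22, unadjusted p = 0.00549 and adjusted p = 0.364) in the authors' deposited table. All 4 higher carriers, SLC25A15 included, had an unadjusted p under 0.01, as did 1 of the 6 lower ones, SLC30A6. These 5 of 10 stand beside 22.3% of listed genes in the authors' deposited table, and the members were picked from that table with these p-values known. By side, 78 of 357 higher and 113 of 501 lower listed genes had such a p, so the table as a whole shows no such split.

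On the lower side, SLC4A3 (ENSG00000114923.12), an exchanger of chloride for bicarbonate best known from heart and brain, had the lowest ratio of the 10. Its level was 37.6% lower in shPRMT1 in the authors' deposited table (ratio 0.624, log2 fold change −0.68, unadjusted p = 0.0132 and adjusted p = 0.408). SLC6A8 (ENSG00000130821.11), the sodium- and chloride-coupled creatine transporter whose loss causes an X-linked creatine deficiency, had a ratio of 0.823 and the largest p of the 10 in the authors' deposited table (log2 value −0.28, unadjusted p = 0.0357 and adjusted p = 0.432). The creatine carrier at the cell surface and SLC16A9, for which creatine has also been described as a substrate, thus lay on opposite sides of the authors' deposited table.

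SLC30A6 (ENSG00000152683.10) is the Golgi carrier of the set. It pairs with SLC30A5 to load zinc into the early secretory pathway, where enzymes such as alkaline phosphatases acquire the metal. It had the smallest p of the 10 in the authors' deposited table (p = 0.00285, adjusted p = 0.351), at rank 62 of 858, with a ratio of 0.737 and a log2 fold change of −0.44.

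**Figure D2:**
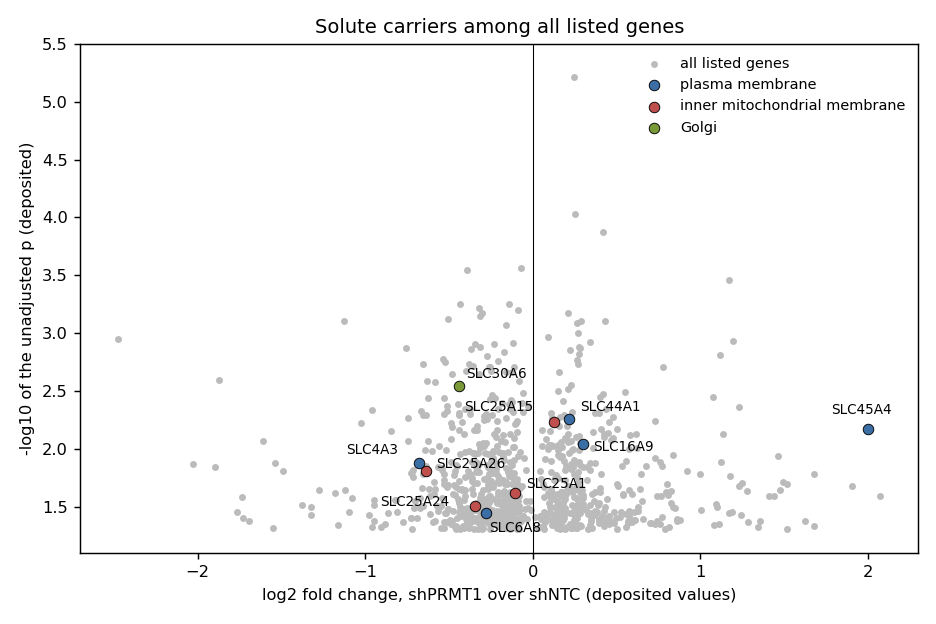
Each point is a gene of the authors' deposited table, with its log2 fold change, shPRMT1 over shNTC, on the x axis and −log10 of its unadjusted p on the y axis; the 10 carriers are coloured by location. SLC45A4 lies at the right edge at 2.0, and the other 9 carriers lie between −0.68 and 0.3, with SLC4A3 and SLC25A26 at the low end, at ranks 807 and 797 of 858 from the highest log2 fold change down.

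Other genes of the same transport and metabolic pathways were read from 12 lists, which hold 250 genes besides the 10 carriers. The authors' deposited table holds 8 of these, 4 on the lower and 4 on the higher side, and 0 of them passed an adjusted p of 0.05. The 8 are 3.2% of the 250, beside the 11.2% of the 7640 tested genes that the authors' deposited table holds. The 10 carriers, all listed, were left out of the 250, which lowers that share. With them, 18 of 260 list genes were listed, a count that the choice of the carriers raises. How many of the list genes were tested is unknown, so the shares have different denominators. No shortage of listed pathway genes can be read from them. Absence from the table can mean an unadjusted p of at least 0.05 or no test at all.

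The list of ornithine, urea cycle and polyamine genes had 4 listed members besides its carriers, of 30. SAT1, which acetylates spermidine and spermine for breakdown or export, stood at a log2 fold change of −0.70 (unadjusted p = 0.0321 and adjusted p = 0.432) in the authors' deposited table. SMS, spermine synthase, was at −0.21 and EIF5A, the translation factor that carries the spermidine-derived hypusine, at −0.17 in the authors' deposited table. The polyamine transport ATPase ATP13A3 was at 0.12 in the authors' deposited table. Beside SLC25A15 at 0.13 and SLC45A4 at 2.0, the list thus had 6 of its 32 genes in the authors' deposited table, with 3 on each side. These carriers were picked from the listed genes, which raises that count, and both lie on the higher side. Without them, 4 of 30 were listed (13.3%), 3 lower and 1 higher, a share that leaving them out lowers. Over all genes, 11.2% of those tested were listed, and 58.4% of the listed genes were lower.

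On the list of S-adenosylmethionine supply and its mitochondrial users, MAT2A was the 1 further gene listed of 33. MAT2A makes this methyl donor outside the liver. It was on the higher side, with a log2 fold change of 0.21 (unadjusted p = 0.00747 and adjusted p = 0.379) in the authors' deposited table, whereas the mitochondrial carrier SLC25A26 was at −0.64. Of 14 other genes of citrate and lipid precursor supply the citrate synthase gene CS was listed, at 0.30 (p = 0.0269) in the authors' deposited table, beside SLC25A1 at −0.1. Of 17 other monocarboxylate transporters and chaperones, BSG, the glycoprotein that escorts several of these transporters to the cell surface, was at −0.09 (p = 0.0184) in the authors' deposited table, beside SLC16A9 at 0.3. Of 33 other genes of zinc transport and metallothioneins, the metallothionein MT1M was at 0.35 (p = 0.0407) in the authors' deposited table, beside SLC30A6 at −0.44. Metallothionein genes are close copies whose reads can be shared, so this value is uncertain.

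No further gene was listed among 49 other SLC25-family genes, 13 genes for the import of carriers into mitochondria, 19 of mitochondrial nucleotide, phosphate and calcium handling, 15 of choline transport, 8 of creatine metabolism, 29 of bicarbonate, chloride and proton exchange and 3 of the SLC45 family, against 11.2% of all genes tested. The carriers were picked from the listed genes and include every listed SLC25 and SLC45 gene, so the absence of others in these families follows from that choice. Counted with the carriers, 4 of 53 SLC25 genes and 1 of 4 SLC45 genes were listed. In most of the other lists a listed carrier was likewise left out of the count. The lists do not hold every gene of these processes, and genes outside them were not counted. The absence therefore describes the lists alone. The authors' deposited table holds 4 more genes with an SLC symbol, which are not among the 10. SLC17A9, the vesicular nucleotide transporter, was at 1.68, and of the SLC35 family of mainly nucleotide-sugar carriers, SLC35G2 was at −0.82, SLC35D2 at −0.26 and SLC35B4 at −0.12 in the authors' deposited table. Over all 14 genes with an SLC symbol, 9 were lower (64.3%), beside 58.4% of all listed genes.

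**Figure D3:**
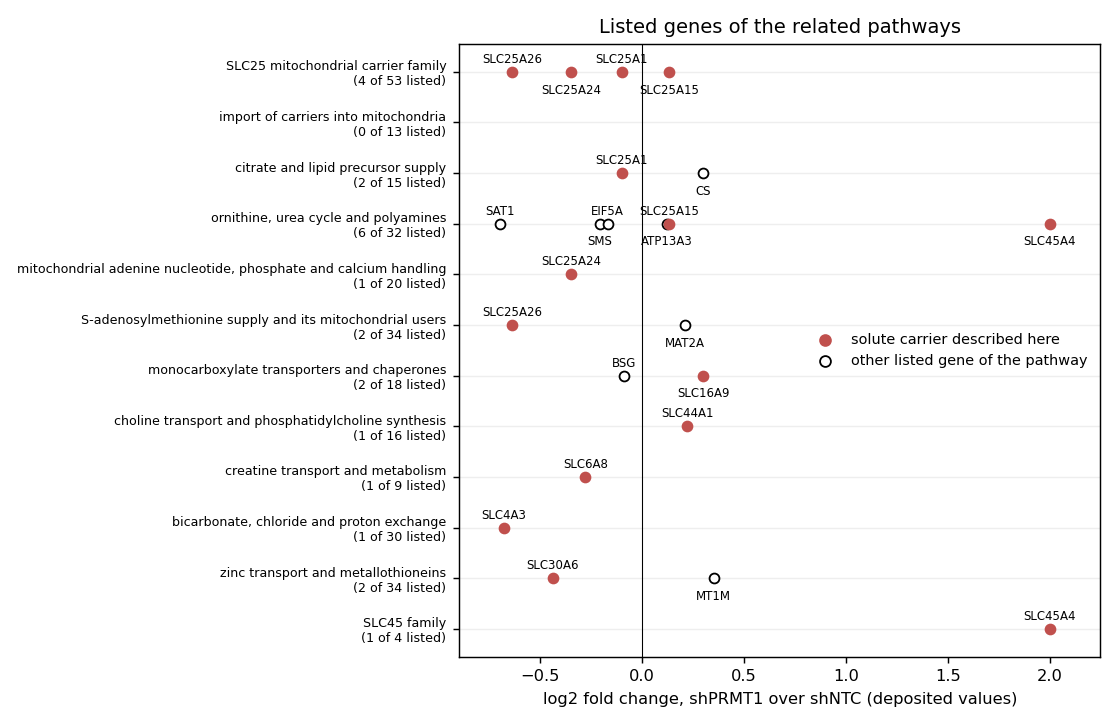
Rows are the 12 lists, with the number of listed genes of all list genes, and points give the log2 fold change, shPRMT1 over shNTC, of each listed gene in the authors' deposited table. Filled points are the carriers and open points the other 8 listed genes, which lie between −0.70 (SAT1) and 0.35 (MT1M).

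Gene structure was read from GENCODE 29, an annotation on another build than the authors' hg19. The longest transcripts of the carriers ranged from 1586 nt (SLC25A15) to 10511 nt (SLC44A1). The medians were 4075 nt for the 6 carriers listed lower and 5830 nt for the 4 listed higher, and over all listed genes with a match they were 2823 nt for 497 lower genes and 4436 nt for 349 higher genes. SLC45A4, with 7483 nt, was longer than 89.7% of these genes, whereas SLC25A15, also higher, was longer than 15.5%. SLC25A1 and SLC25A15 have longest transcripts of nearly equal length (1648 nt and 1586 nt) and lay on opposite sides of the authors' deposited table. Both log2 fold changes were small, −0.1 and 0.13, and centring on the median of all listed genes put both on the higher side. Whether length has a part in these ratios was not tested.

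**Figure D4:**
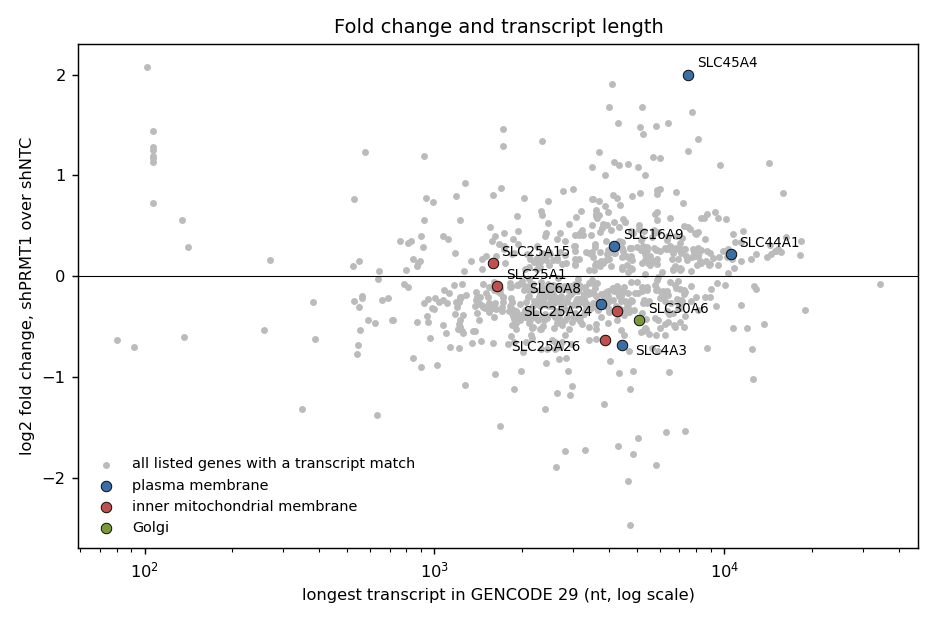
The x axis is the longest annotated transcript of each gene (nt, log scale) and the y axis the log2 fold change, shPRMT1 over shNTC, of the authors' deposited table. The carriers with the shortest transcripts, SLC25A15 (1586 nt) and SLC25A1 (1648 nt), lie close to 0, and SLC45A4 (7483 nt) lies at 2.0.

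Several carriers share sequence or exons with other genes, and how the authors' counting treated such reads is not given in the sources used here. SLC6A8 on chromosome X aligned over 2062 bases to the transcribed pseudogene SLC6A10P at 96.4% identity, and reads can be split between them. SLC25A1 aligned over 931 bases to the pseudogene SLC25A1P1 at 90.3%, and SLC25A15 over 1261 bases to its paralog SLC25A2 at 85.2%. On the opposite strand, exons of SLC25A26 shared 907 bases with LRIG1, those of SLC25A24 shared 924 bases and 437 bases with a pair of unnamed genes, those of SLC45A4 shared 65 bases with an unnamed antisense gene, and those of SLC6A8 shared 22 bases with PNCK. Neither LRIG1 nor PNCK is in the authors' deposited table. SLC4A3, SLC30A6, SLC44A1 and SLC16A9 had neither an exon overlap nor such a match at the limits used.

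Promoter sequences from RefSeq (GRCh38.p14) were found for 9 of the 10 carriers, all but SLC45A4. The windows are the 250 bases before the most upstream start that the RefSeq table gives for each gene. The 2 carriers with the lowest and the 2 with the highest ratio among these 9 are shown, because they stand at the ends of the range of ratios and differ widely in base composition. Capitals mark matches, on either strand, to 5 motifs. These are the E-box CACGTG, the box named for its letters CCAAT, the GC box GGGCGG, the cyclic AMP response core TGACG, and the form TATAAA of the box that lies before some starts. Neighbouring or overlapping matches run together.
SLC4A3, chr2:219630807-219631056, + strand: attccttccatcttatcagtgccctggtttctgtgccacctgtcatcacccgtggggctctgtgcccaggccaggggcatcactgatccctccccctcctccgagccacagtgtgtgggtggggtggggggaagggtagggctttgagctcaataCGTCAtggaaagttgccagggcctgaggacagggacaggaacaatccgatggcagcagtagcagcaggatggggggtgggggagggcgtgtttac
SLC25A26, chr3:66220492-66220741, + strand: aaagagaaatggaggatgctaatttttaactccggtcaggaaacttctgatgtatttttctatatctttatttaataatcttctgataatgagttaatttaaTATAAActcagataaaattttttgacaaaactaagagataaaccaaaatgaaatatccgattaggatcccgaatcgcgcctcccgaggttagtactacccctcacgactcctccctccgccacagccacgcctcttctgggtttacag
SLC44A1, chr9:105244401-105244650, + strand: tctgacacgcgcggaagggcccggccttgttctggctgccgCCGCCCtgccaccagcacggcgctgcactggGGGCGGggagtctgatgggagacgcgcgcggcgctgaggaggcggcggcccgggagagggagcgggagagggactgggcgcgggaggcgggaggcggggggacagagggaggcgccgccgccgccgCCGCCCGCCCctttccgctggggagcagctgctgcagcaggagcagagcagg
SLC16A9, chr10:59710080-59710329, − strand: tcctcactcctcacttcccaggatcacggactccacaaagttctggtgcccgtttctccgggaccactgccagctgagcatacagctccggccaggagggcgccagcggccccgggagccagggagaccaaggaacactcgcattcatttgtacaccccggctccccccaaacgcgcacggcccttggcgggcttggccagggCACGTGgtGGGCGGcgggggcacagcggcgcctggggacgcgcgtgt

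The window of SLC25A26 was the poorest in G and C of the 9, at 37.6%, and just 9.36% of the 27305 RefSeq windows had less. It holds the single TATAAA among the carriers, a motif in 11.2% of all windows. The window of SLC4A3 had 60.8% G and C but 5 CpG dinucleotides, 0.22 of the number that its base composition would give, whereas the other 8 windows had 0.71 to 1.05. SLC44A1 had 77.6% G and C with 30 CpG dinucleotides, and SLC16A9 had 68.4% with 21. The median over all windows was 57.6% G and C.

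GGGCGG, the GC box, was in 5 of the 9 windows (42.2% of all windows). These were SLC25A1 with 8 matches, SLC6A8, SLC25A15 and SLC44A1 with 4 each, and SLC16A9 with 1. The 3 carriers listed higher that have a window all held it, as did 2 of the 6 listed lower in the authors' deposited table. TGACG was in 4 windows (21.6% of all), those of SLC4A3, SLC25A24, SLC6A8 and SLC25A1, each of a carrier listed lower in the authors' deposited table. CCAAT was in the windows of SLC30A6 and SLC25A1, 2 of 9 (33.0% of all), and CACGTG was in that of SLC16A9, 1 of 9 (6.46% of all). A match is a description of these letters and no evidence that a factor binds, and the motifs were chosen with the direction of each carrier known. Shares of the motifs among all listed lower or higher genes were not computed, and a link between motif and direction was not tested.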

How the data were processed

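Total RNA of 2 shPRMT1 and 2 shNTC samples, grouped by title, is summarised in 1 deposited table. The build hg19 is named per the submitters' processing notes, which also list edgeR 3.36.0, deepTools, StringTie 2.2.1, HISAT2 2.2.1 and Trim Galore 0.6.7. What each tool did, the test, the normalization and the gene filter are not stated in these sources. The authors deposited a linear fold change (ratio), its log2 value, a p-value and a q-value (adjusted p) per gene. The labels' extraction text describes chromatin immunoprecipitation beside a total RNA kit, and the molecule was taken as RNA. Depth per sample is unknown, and no test of samples, interval or replicate error could be computed.

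The members, gene lists, motifs and the rule for named genes (all members, every listed gene of the lists, other SLC symbols and PRMT1) were chosen with earlier results of these data known. That 7640 genes were tested was worked out from p, rank and adjusted p, and all 52 runs of equal adjusted p that could be used gave it within 0.01. In 50 of 50 simulated tables the number was recovered within 1. Their adjusted p were made by the same formula that is inverted, so they check the code and not how the authors adjusted. List genes were matched by identifier and symbol. The longest transcript came from GENCODE 29 for 846 of 858 genes. Copies were sought with BLAST 2.17.0 among GENCODE transcripts of other genes, with the longest protein-coding transcript of each carrier as query (at least 85% identity, 300 bases and 20% of the query). Python 3.11.15, numpy 2.4.6, pandas 2.3.3 and matplotlib 3.10.9 were used. Alternatives were other thresholds of p and fold change, and shifts or centring of the log2 values.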

Additional observations from a re-analysis of the deposited data

How the results depend on the processing

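By the authors' deposited table, 0 carriers passed an adjusted p of 0.05; their smallest was 0.351, so the stricter limits (0.01, or a log2 fold change of 1 in either direction as well) could give 0 alone and show nothing about stability. The count was 10 at an unadjusted p under 0.05 and 5 at an unadjusted p under 0.01, which the thresholds themselves set. The number of carriers listed higher was 4 as deposited, with every log2 value raised or lowered by 0.1 and from the deposited ratio, and 5 when centred on the median of all listed genes (−0.12). The deposited ratio holds the same values, and a shift can turn only the signs that it moves towards 0. Of the 16 single values so placed, 15 kept their sign, and SLC25A1 turned to 0.021 when centred, because its own value is nearer 0 than that median. The deposited values fixed this outcome. The carrier nearest 0 is SLC25A1 at −0.103, so shifts of 0.1 could turn no sign, and centring could turn that of SLC25A1 alone. Under the shifts of 0.1 towards 0, SLC25A1 came to −0.003 and SLC25A15 to 0.028. The authors' normalization is unknown, so an offset common to all genes cannot be told apart from the sign of SLC25A1. No paired analysis was possible because the table holds 1 comparison and no values of single samples; leaving out replicates, size factors and low-value filters could not be run for the same reason. The depth, and with it the precision of each ratio, is unknown.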
